A study of Mus musculus with 7 samples.

Results

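The clustered Hox genes were examined in an ATAC-Seq data set from mouse bone marrow. The members are the 39 protein-coding genes of GENCODE vM21 whose symbol is Hoxa, Hoxb, Hoxc or Hoxd followed by a number, among the 21951 protein-coding genes of that annotation. They lie in 4 clusters. The Hoxa cluster holds 11 genes, the Hoxb cluster 10, and the Hoxc and Hoxd clusters 9 each. A window around each cluster ran from the first to the last Hox gene with 20000 bp added on each side, on mm10 chr6:52135590-52280880 for Hoxa, chr11:96174316-96388256 for Hoxb, chr15:102901103-103056852 for Hoxc and chr2:74648310-74785142 for Hoxd. Of the 133536 consensus regions of accessible chromatin in the data set, 142 had their summit in these windows, with 35 in Hoxa, 43 in Hoxb, 34 in Hoxc and 30 in Hoxd. Regions are named by cluster and numbered from the end that holds the lowest-numbered Hox gene, so that Hoxb-01 lies on the Hoxb1 side.

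The cells were LSK cells, the lineage-negative Sca-1+ c-Kit+ fraction of bone marrow in which the blood-forming stem cells and the earliest progenitors are found, sorted from wild-type C57/BL6 mice as adults. The 3 Ctrl libraries came from offspring of normal pregnancies and the 4 WTAkita libraries from wild-type offspring of diabetic pregnancies, in which the dam was heterozygous for the Akita mutation of the insulin gene Ins2. In the study's breeding scheme the Akita females and their wild-type littermates were both given a high-fat diet before mating. Each library was made from 50000 sorted cells. The study's methods call the libraries biological replicates. The sources used here do not give the number of mice behind each, and every p-value rests on the spread among libraries. The libraries held 137963 to 151552 peaks, and the number of tags behind them was estimated at 37600000 to 53100000. WTAkita replicate 1, WTAkita replicate 2 and Ctrl replicate 1 had the lowest median fold enrichment, 5.25 to 5.79 against 6.32 to 6.59 in the other 4. All 10 LSK marker genes examined, Kit and Cd34 among them, had an accessible promoter in all 7 libraries.

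Hox genes encode homeodomain transcription factors that give cells along the body axis their positional identity. In each cluster the genes are numbered by the paralogue group they share with the other clusters, and their order on the chromosome follows the order in which they are used along the axis. In blood, genes of the Hoxa and Hoxb clusters are expressed in stem and progenitor cells and fall during differentiation, and persistent Hoxa9 and Hoxa10 expression is a feature of many acute leukemias. The clusters are rich in CpG dinucleotides, carry noncoding RNAs and microRNAs between the coding genes, and in many tissues are held silent by Polycomb proteins.

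The sequences shown first are the 150 bases centred on the summit of the strongest region of each cluster, because these are the most accessible points of the 4 clusters and differ in base composition. They are printed on the plus strand of mm10 (RefSeq GRCm38.p6), with CpG dinucleotides in capitals, and lie at chr6:52191818-52191967, chr11:96235001-96235150, chr15:102987505-102987654 and chr2:74715834-74715983.
Hoxa-09: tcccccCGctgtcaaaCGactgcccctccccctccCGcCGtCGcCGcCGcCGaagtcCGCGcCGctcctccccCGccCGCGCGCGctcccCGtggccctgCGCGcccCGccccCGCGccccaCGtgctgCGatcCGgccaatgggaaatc
Hoxb-37: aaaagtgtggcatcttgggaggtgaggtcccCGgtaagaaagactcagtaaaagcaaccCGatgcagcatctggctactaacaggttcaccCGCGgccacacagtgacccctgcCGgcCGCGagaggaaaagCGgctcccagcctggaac
Hoxc-13: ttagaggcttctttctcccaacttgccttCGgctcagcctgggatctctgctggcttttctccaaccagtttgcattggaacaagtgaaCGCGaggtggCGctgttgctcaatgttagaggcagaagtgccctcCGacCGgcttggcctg
Hoxd-12: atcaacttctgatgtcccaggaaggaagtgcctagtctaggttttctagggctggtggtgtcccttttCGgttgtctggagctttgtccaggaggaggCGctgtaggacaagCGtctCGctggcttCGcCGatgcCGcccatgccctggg
The Hoxa-09 stretch, 140 bp from the Hoxa4 start site, held 25 CpG dinucleotides, whereas the stretches at Hoxb-37, Hoxc-13 and Hoxd-12 held 8, 6 and 7. Of these 4 regions, only Hoxa-09 lies within 1000 bp of a Hox start site.

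Accessible chromatin was spread along all 4 clusters, at genes used in blood as well as at genes that are not. Of the 142 summits, 43 were intergenic, 42 intronic, 29 in coding exons, 17 in exons of noncoding RNAs or noncoding transcripts and 11 in untranslated regions, and 56 lay within 1000 bp of a Hox start site. The level of a region is given as fold enrichment, the authors' ratio of the tag pileup at a peak's summit to the tag density around it in the same library. The median fold enrichment over the 142 regions was 4.49, against 6.65 over all 133536 regions, with 4.79 in Hoxa, 4.40 in Hoxb, 4.30 in Hoxc and 5.08 in Hoxd. Of the 142 regions, 117 (82.4%) were called in all 7 libraries, against 82.2% of all regions.

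**Figure D1:**
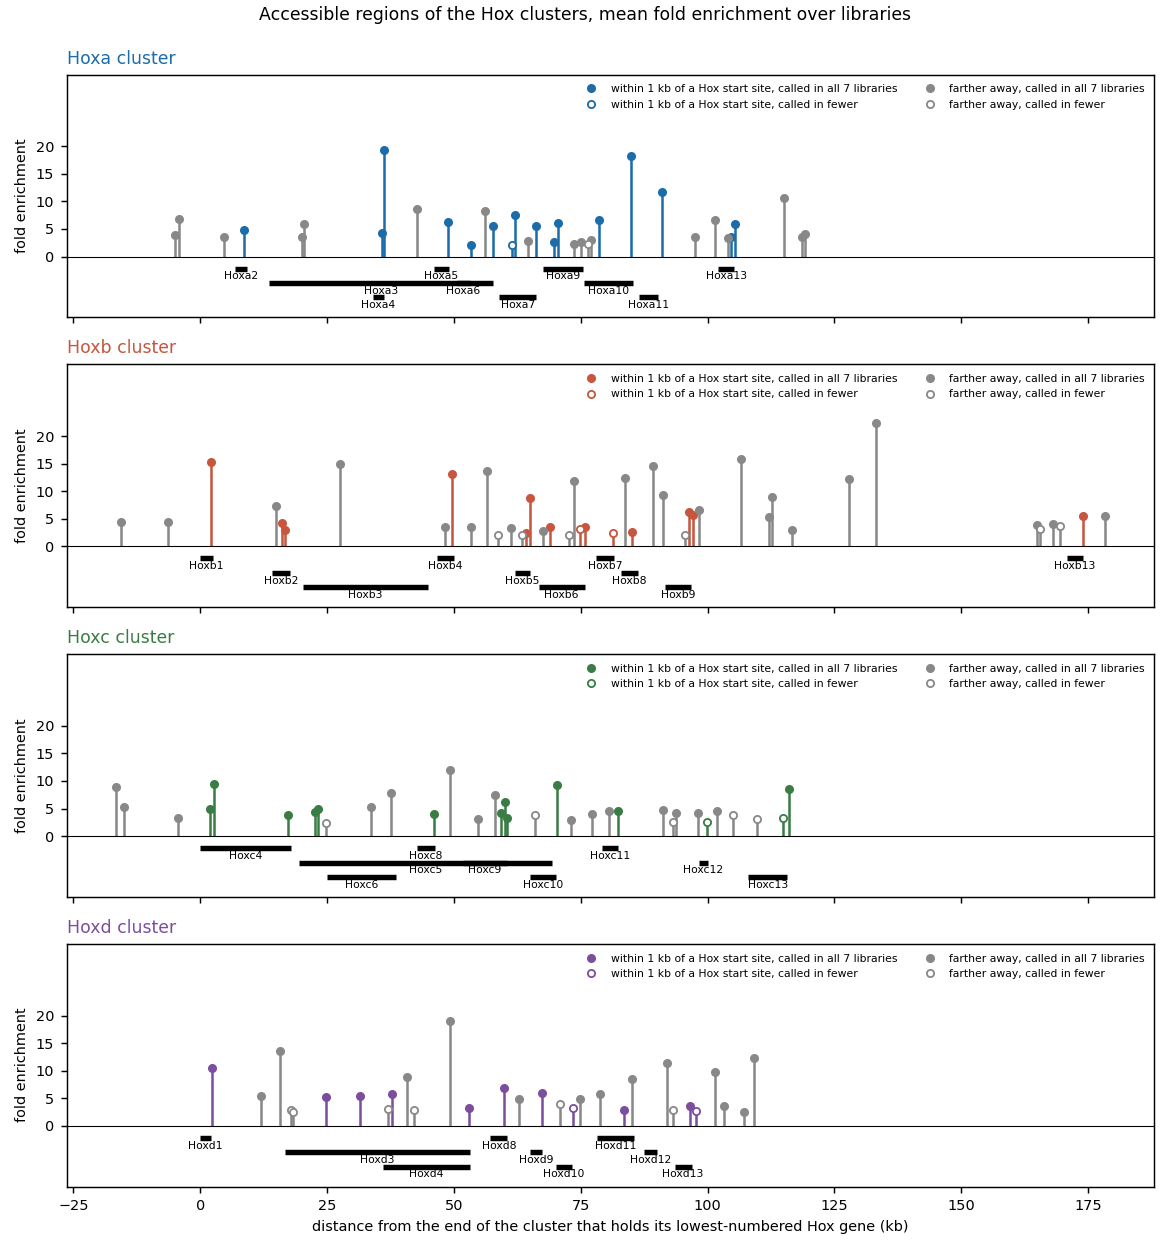
Mean fold enrichment over the libraries that called a region (vertical axis) against the distance in kb from the end of the cluster that holds its lowest-numbered Hox gene (horizontal axis), for the regions reported here. Coloured stems lie within 1 kb of a Hox start site, grey stems farther away, open circles mark regions called in fewer than 7 libraries, and black bars are the genes. The tallest stem of each cluster stands at 19.3 (Hoxa), 22.3 (Hoxb), 12.0 (Hoxc) and 19.04 (Hoxd).

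Strong sites lay both at Hox promoters and away from them. The median fold enrichment was 4.96 over the 56 regions within 1000 bp of a Hox start site and 4.20 over the 86 others. Of the 20 regions with the highest mean fold enrichment, 6 lay within 1000 bp of a Hox start site and 14 farther away, and 10 of the 20 were in the Hoxb window, 5 in Hoxa, 4 in Hoxd and 1 in Hoxc. Hoxb-37, at chr11:96234786-96235476, was the strongest of all. It is intergenic, in the long interval between Hoxb9 and Hoxb13, 36381 bp from the Hoxb9 start site. Its fold enrichments were 18.8, 26.3 and 22.8 in Ctrl and 16.7, 19.7, 26.3 and 25.2 in WTAkita. The groups overlapped throughout their range, and the 3 lowest values belonged to the 3 libraries with the lowest median fold enrichment. The same interval held Hoxb-36 (12.1), and Hoxb-32 (15.8) lay in an exon of the noncoding gene Gm53.

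Hoxd-12, at chr2:74715692-74716398, was the strongest Hoxd region. It lies in an exon of Hoxd3os1, a noncoding RNA antisense to Hoxd3, 3982 bp from the nearest Hox start site. Its fold enrichments were 18.6, 22.1 and 21.6 in Ctrl and 13.1, 17.4, 19.1 and 21.2 in WTAkita. The WTAkita values reached lower than the Ctrl values but overlapped them. Hoxc-13, in an intron of a long Hoxc5 transcript, 3027 bp from the Hoxc8 start site at chr15:102987226-102987832, was the strongest Hoxc region. It measured 9.44, 14.4 and 12.4 in Ctrl and 10.4, 10.6, 10.8 and 15.8 in WTAkita, the last value standing apart from the other WTAkita libraries.

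The promoter of a Hox gene was taken as the strongest region with a summit within 1000 bp of one of its protein-coding start sites. Such a region was found for 36 of the 39 genes, and for 33 of them it was called in all 7 libraries. Hoxb3, Hoxc6 and Hoxd12 had none. The share with a region was 92.3%, and 71.5% over all 21853 protein-coding genes with a coding transcript on the chromosomes examined. The median fold enrichment was 5.89 over the 36 Hox promoters and 14.1 over the 15614 promoters of protein-coding genes with a region, and only 3 Hox promoters lay above that median.

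In the Hoxa cluster all 11 promoters held a region. The Hoxa4 promoter (Hoxa-09, chr6:52191693-52192545) had the highest level, with fold enrichments of 17.0, 20.04 and 19.4 in Ctrl and 17.2, 18.8, 22.2 and 20.4 in WTAkita. The Hoxa10 promoter (Hoxa-26, chr6:52240314-52240913), at the start site of its longer transcript, followed at 16.5, 19.5 and 21.1 in Ctrl and 14.8, 16.4, 18.97 and 20.6 in WTAkita. At both genes the groups overlapped, and the difference between neighbours in this order was smaller than the spread between libraries. The start site of Hoxa10 nearest its coding sequence lay beside a weaker region, Hoxa-25, with a mean of 6.67.

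Hoxa7 and Hoxa9, which are highly expressed in stem and progenitor cells, stood lower on this scale. The Hoxa7 promoter (Hoxa-16) measured 7.43, 7.10 and 7.76 in Ctrl and 7.18, 7.34, 7.92 and 8.35 in WTAkita. The Hoxa9 promoter (Hoxa-20) measured 5.52, 6.003 and 6.38 in Ctrl and 4.98, 5.93, 7.58 and 6.60 in WTAkita. The 2 groups overlapped at both genes. The other Hoxa promoters described here ranged from 2.09 at Hoxa6 to 11.6 at Hoxa11, a limb and uterus gene, with Hoxa13, a gene of the distal limb and genital tract, at 5.81.

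In the Hoxb cluster 9 of 10 promoters held a region. The Hoxb1 promoter (Hoxb-03, chr11:96365606-96366917), a hindbrain gene, was highest at 15.2, 14.5 and 14.6 in Ctrl and 14.9, 13.4, 17.5 and 16.9 in WTAkita. The Hoxb4 promoter (Hoxb-09, chr11:96318088-96319428) measured 12.9, 12.8 and 13.1 in Ctrl and 12.0, 13.4, 14.9 and 13.1 in WTAkita. Hoxb4 expands hematopoietic stem cells when it is overexpressed. Its 3 Ctrl values lay within the WTAkita range. The promoter of Hoxb5 (Hoxb-16), a marker of long-term stem cells, measured 7.49, 9.85 and 9.70 in Ctrl and 6.84, 7.76, 9.37 and 9.98 in WTAkita, again with Ctrl inside the WTAkita range.

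Hoxb8, used experimentally to keep myeloid progenitors growing, had a weak promoter region (Hoxb-25) at 2.45, 2.80 and 2.88 in Ctrl and 2.59, 2.64, 2.37 and 2.20 in WTAkita. A stronger region, Hoxb-24 (12.3), lay 1847 bp from its start site in an untranslated region of the gene. For Hoxb3 no region lay within 1000 bp of a protein-coding start site, although an intronic region, Hoxb-07 (14.9), lay 3010 bp from the nearest such start and 186 bp from the start of a noncoding Hoxb3 transcript. The remaining Hoxb promoters ranged from 2.43 at Hoxb7 to 6.21 at Hoxb9.

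The Hoxc and Hoxd clusters, whose genes act mainly in trunk, limb and skin, had no promoter above 10.6. The highest Hoxc promoter was that of Hoxc4 (Hoxc-05, chr15:103033778-103034772), a gene also expressed in lymphoid cells, at 9.20, 9.84 and 10.3 in Ctrl and 8.27, 8.86, 8.45 and 10.5 in WTAkita. Hoxc10 (9.24) and Hoxc13 (8.46), a hair follicle gene, stood next to it within the spread of the libraries. The highest Hoxd promoter was that of Hoxd1 (Hoxd-01, chr2:74762595-74763765) at 12.1, 10.8 and 9.84 in Ctrl and 8.50, 10.1, 10.7 and 11.9 in WTAkita. The groups overlapped at Hoxc4 and Hoxd1. The limb genes at the other end of the cluster were lower, with Hoxd13 at 3.69, Hoxd11 at 2.94, Hoxd10 at 3.24 and no region for Hoxd12. Over all clusters the median promoter level was 9.36 for paralogue groups 1 to 4, 4.50 for groups 5 to 8 and 5.95 for groups 9 to 13. By summit pileup, the number of tags that cover the summit, the medians of the same groups were closer, at 65.3, 57.7 and 50.3 tags, and groups 9 to 13 were the lowest.

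**Figure D2:**
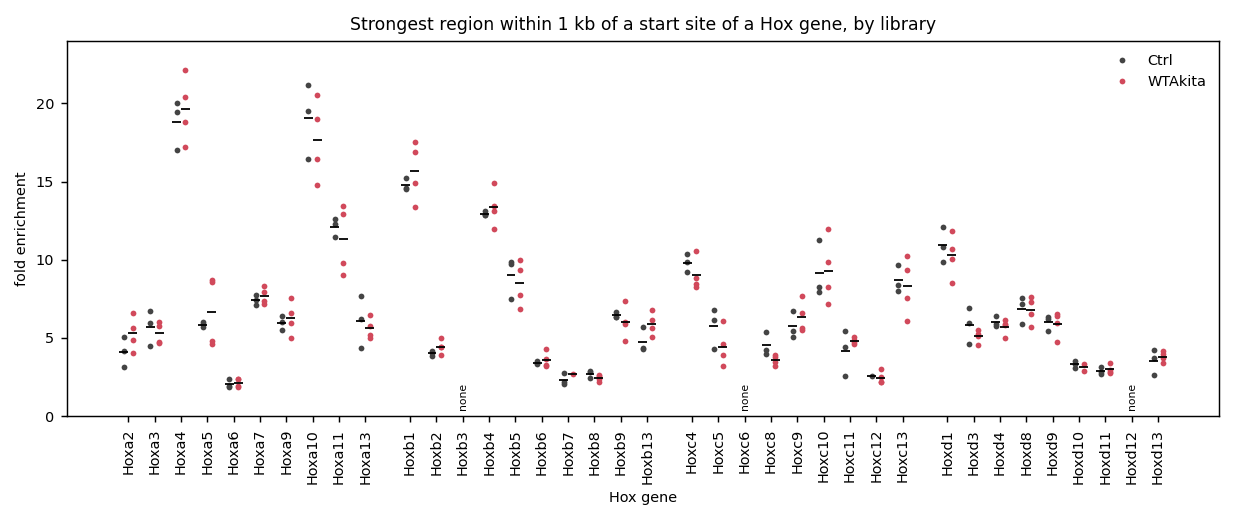
Fold enrichment (vertical axis) of the strongest region within 1 kb of a start site of the Hox genes reported here (horizontal axis), 1 point per library that called it, with Ctrl in grey, WTAkita in red and a bar at each group's mean. Points of both groups overlap at every promoter shown with values in all 7 libraries apart from Hoxc8, where the Ctrl values (3.97 to 5.41) lie above those of WTAkita (3.24 to 3.92), and "none" marks Hoxb3, Hoxc6 and Hoxd12. After normalization the groups overlap at Hoxc8 too.

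The low fold enrichment of Hoxa7 and Hoxa9 went with a high local background. The summit pileup, the number of tags covering the summit, was solved from the deposited fold enrichment and p for each peak, and the local background is the tag density that fold enrichment divides by. Hoxa7 had the highest pileup of any Hox promoter, with 346, 388 and 317 tags in Ctrl and 292, 337, 351 and 396 in WTAkita, over a mean local background of 44.9 tags. By pileup it stood at percentile 72.2 of all protein-coding promoters, and by fold enrichment at percentile 15.9. Hoxa9 had 222, 288 and 215 tags in Ctrl and 166, 233, 269 and 268 in WTAkita over a background of 37.8, at percentile 49.7 by pileup and 11.0 by fold enrichment. At Hoxa3, whose long transcripts start between Hoxa6 and Hoxa7, the background was 40.4 tags. Hoxb8 was low on both scales, at percentile 7.17 by pileup and 0.397 by fold enrichment. Its mean background was 13.7 tags.

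The 2 scales therefore ordered the clusters differently. The median pileup at promoters was 187 tags in Hoxa, 67.7 in Hoxb, 43.3 in Hoxc and 39 in Hoxd, against 239 over all protein-coding promoters, and the median local background was 15.2, 10.1, 6.16 and 6.31 tags. By fold enrichment the 4 cluster medians lay between 5.41 and 6.32. Over all regions of a window, promoters or not, the median pileup was 85.3 tags in Hoxa, 47.7 in Hoxb, 28.2 in Hoxc and 36.6 in Hoxd, and 48.4 over all regions. By pileup, 3 Hox promoters, those of Hoxa7, Hoxa10 (mean 280 tags) and Hoxb4 (246 tags), lay above the median of all protein-coding promoters. By fold enrichment the 3 were Hoxa4, Hoxa10 and Hoxb1.

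**Figure D3:**
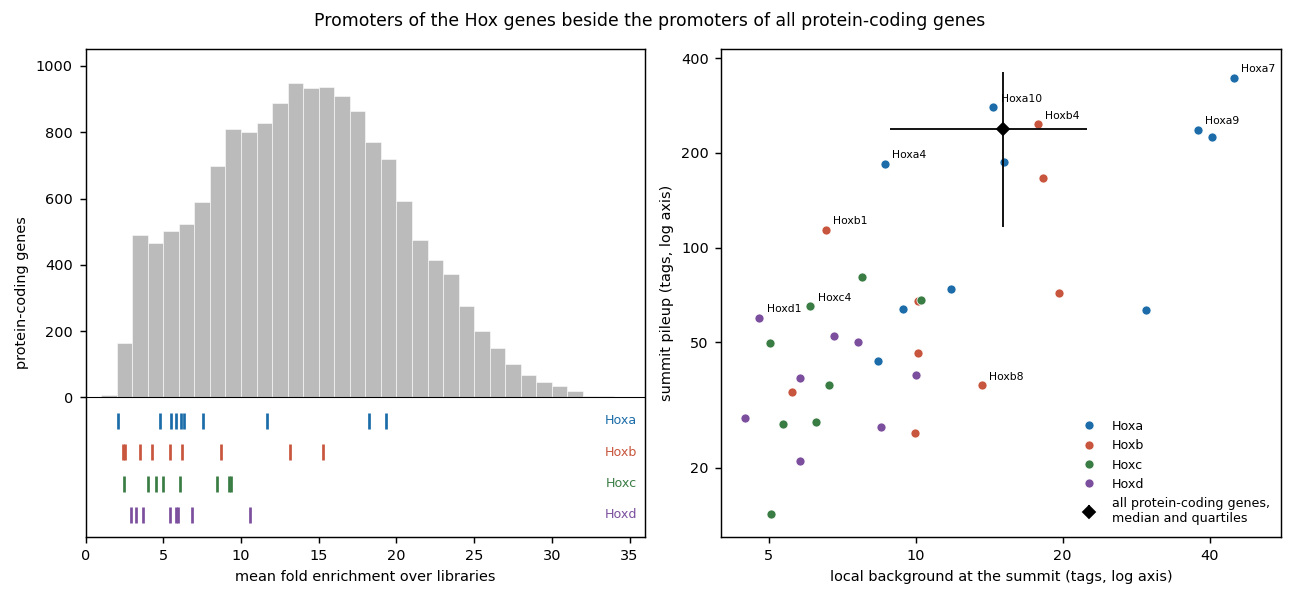
Left, number of protein-coding genes (vertical axis) by mean promoter fold enrichment (horizontal axis), with the Hox promoters reported here as coloured ticks under the bars. Right, mean summit pileup against mean local background in tags, both on log axes, for the same Hox promoters, with the median and quartiles of all protein-coding promoters in black. Hoxa7 and Hoxa9 stand at the upper right, with backgrounds of 44.9 and 37.8 tags, and the Hoxc and Hoxd promoters at the lower left.

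Hox regions were CpG-rich. Over the 300 bp around the summit the median GC content was 59.0% in the 142 regions and 49.7% in all regions, and the median ratio of observed to expected CpG dinucleotides was 0.657 and 0.235. Within the windows the ratio was 0.770 for the 56 regions near a Hox start site and 0.554 for the 86 others. At the promoters alone, Hox genes and all protein-coding genes were close, at 0.795 and 0.768. The Hoxc4 promoter was an exception at 0.246, and Hoxa4 (1.04), Hoxd13 (1.09) and Hoxa13 (1.01) were the richest.

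Motifs of blood and architectural factors were searched on both strands in the same 300 bp windows, by exact match. The core motif of CTCF, a protein that shapes chromatin loops at Hox clusters, matched 5 of 142 Hox regions (3.52%) and 10.8% of all regions. The RUNX motif TGTGGTNA, of the stem cell factors Runx1 to Runx3, also matched 5 Hox regions, against 9.44% of all regions. The HOX-PBX motif TGATTNAT matched 4 (2.82% against 3.35%), the MEIS motif TGACAGNT 3 (2.11% against 5.63%), and the GATA motif AGATAAG 3 (2.11% against 3.95%). The ETS motif CCGGAAGT matched none, against 1.25%. The Sp1 motif GGGCGGGGC matched 6 (4.23% against 3.76%). Each motif was counted on its own, with no allowance for overlap between motifs, and a match is not evidence of binding.

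The matches to the CTCF and RUNX motifs are shown because 6 of the 10 lie in the 20 strongest Hox regions, 3 for each motif. Of the 40100 regions of the data set at least as strong as the weakest of these 20, 13.4% matched CTCF and 9.02% RUNX. The GATA motif, whose matches are not printed, had 2 of its 3 Hox matches in these 20 and matched 3.61% of the 40100. The CTCF and RUNX matches are printed as 30 bases each, on the strand of the match with the motif in capitals. For CTCF they lie at chr2:74715912-74715941, chr6:52240532-52240561, chr2:74673169-74673198, chr6:52221800-52221829 and chr11:96299345-96299374.
Hoxd-12 CTCF: gagctttgtCCAGGAGGAGGCgctgtagga
Hoxa-26 CTCF: tcgcagccgCCACGAGATGGCgcactcccg
Hoxd-23 CTCF: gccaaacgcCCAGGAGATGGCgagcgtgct
Hoxa-18 CTCF: aagaaaattCCAGGAGATGGCagtgtggct
Hoxb-18 CTCF: tcctattacCCACCAGCCGGCggcggctac
These 5 matches lay 1 to 46 bp from the summit of their region. Hoxd-12 is the strongest Hoxd region, Hoxa-26 the Hoxa10 promoter and Hoxa-18 a Hoxa7 start site. For RUNX the matches lie at chr11:96235145-96235174, chr11:96340607-96340636, chr2:74749301-74749330, chr15:102920912-102920941 and chr6:52150736-52150765.
Hoxb-37 RUNX: gatgctgtggaTGTGGTCAcggtggttcca
Hoxb-07 RUNX: gggaaggtgatTGTGGTGAtgagagatggg
Hoxd-03 RUNX: gcagatactccTGTGGTAAcacaccgcgct
Hoxc-34 RUNX: cgtgcagcggcTGTGGTCAcgtgggaacca
Hoxa-01 RUNX: ggtacccagagTGTGGTTAggaggcgaagc
These 5 lay 42 to 137 bp from the summit. Hoxb-37 is the strongest region of the Hoxb window, Hoxb-07 the intronic Hoxb3 region and Hoxc-34 the Hoxc13 promoter.

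The study asked whether a diabetic pregnancy leaves a lasting mark on the chromatin of the offspring's blood stem and progenitor cells, and the Hox clusters were compared between WTAkita and Ctrl on that question. The study compared read counts under peaks with DESeq2, showed regions at a p under 0.05 and a fold-change limit, and reported reduced accessibility in WTAkita. The test here used fold enrichment and an adjusted p, so its result is not a like-for-like check of the study's. No Hox region differed at an adjusted p under 0.05. The fold enrichments of the 109711 regions called in all 7 libraries were log2-transformed, quantile-normalized and compared by limma, with p adjusted over all of them, and 0 were called (0% of regions). The smallest adjusted p was 1.00. Without WTAkita replicate 4 the count over all regions was 7, none of them in a Hox window. Of the 117 Hox regions tested, 4 had an unadjusted p under 0.05 with a higher value in WTAkita, where 1.77% of all regions did, and 0 with a lower value, where 2.1% of all regions did. The 4 form 3.42% of the Hox regions. The median standard error of a Hox region was 0.16 on the log2 scale.

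The Hox regions as a whole stood close to the rest. The median log2 difference, WTAkita minus Ctrl, was 0.03 over the 117 Hox regions and 0.01 over all regions, and by cluster it was 0.04 in Hoxa, 0.02 in Hoxb, 0.05 in Hoxc and 0.03 in Hoxd. It was above 0 in 69 Hox regions and below 0 in 48, with 18 and 15 in Hoxa, 21 and 14 in Hoxb, 18 and 9 in Hoxc and 12 and 10 in Hoxd. The share above 0 was 59.0% in the Hox windows and 52.1% over all regions. This split depended on the scale. With summit pileups scaled by the estimated number of tags, without further normalization, the median of all regions moved to -0.12 and that of the Hox regions to -0.08, which left the Hox regions 0.04 above the rest, and 28 Hox regions were above 0 and 89 below, a share above 0 of 23.9% against 21.7% over all regions. With the 3 libraries of lowest enrichment left out, 4 Hox regions had an unadjusted limma p under 0.05, and the median was 0.03. The share of all regions at that limit in this fit is not given here, and these need not be the same 4 regions.

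**Figure D4:**
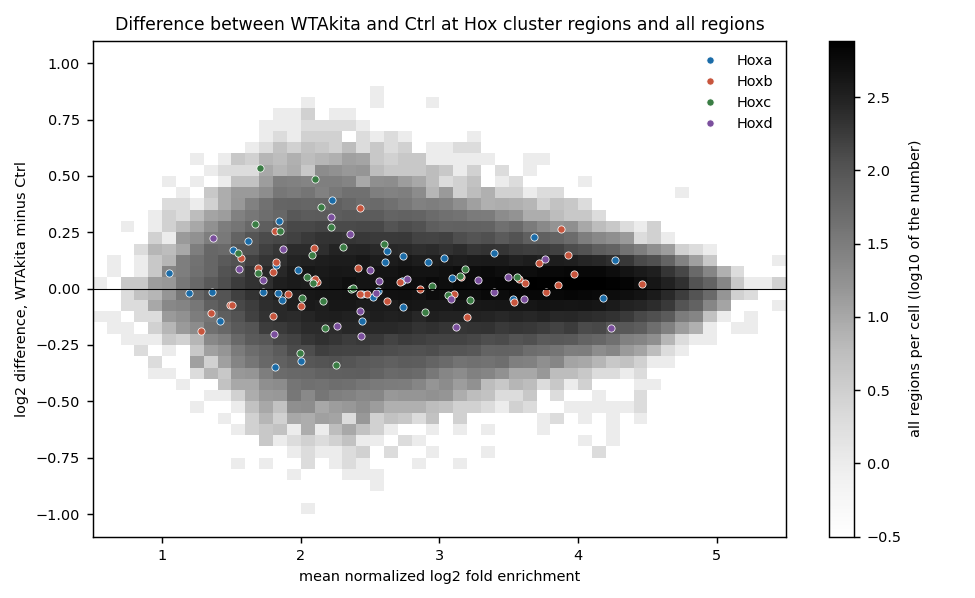
Log2 difference, WTAkita minus Ctrl (vertical axis), against the mean normalized log2 fold enrichment (horizontal axis) for the 117 Hox regions tested, coloured by cluster, over the density of all 109711 regions in grey. The Hox points lie inside the grey cloud, between -0.35 and 0.54.

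The normalized values of the groups did not overlap at 8 Hox regions, 7 with WTAkita above (2.45% of all regions) and 1 with WTAkita below (2.26% of all regions). Those above included Hoxa-09 and Hoxa-25, Hoxb-07 and Hoxb-22, and Hoxc-07 and Hoxc-18, and the one below was Hoxd-12. Hoxa-09 is the Hoxa4 promoter. On fold enrichment as deposited, the groups overlapped at 6 of these 8, all but Hoxb-22 and Hoxc-07. Before normalization 3 further regions had all Ctrl values above the WTAkita values, Hoxa-04, Hoxa-35 and the Hoxc8 promoter (Hoxc-12). How many of all regions did so was not counted, and WTAkita replicates 1 and 2 were among the libraries of lowest median fold enrichment. The Hoxc8 promoter measured 5.41, 3.97 and 4.25 in Ctrl and 3.44, 3.24, 3.80 and 3.92 in WTAkita, a log2 difference of -0.29 ± 0.18 (SE) after normalization.

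The largest difference in either direction was at Hoxc-18, at chr15:102976242-102976641, an intronic site of a long Hoxc5 transcript 53 bp from a Hoxc9 start site. Its fold enrichments were 2.47, 3.37 and 2.29 in Ctrl and 3.22, 3.72, 3.98 and 4.41 in WTAkita. Ctrl replicate 2 lay inside the WTAkita range and the other Ctrl libraries below it. The log2 difference was 0.54 ± 0.16 (SE, 95% interval 0.20 to 0.87), with a limma adjusted p of 1.00. The interval is for this region alone and is not adjusted for its choice as the largest difference. Hoxc-07, at chr15:103014118-103014666 in a coding exon of Hoxc5, measured 3.21, 3.76 and 3.82 in Ctrl and 5.06, 4.06, 4.64 and 5.81 in WTAkita, a log2 difference of 0.49 ± 0.17 (SE). All 4 WTAkita values were above the Ctrl values. The neighbouring Hoxc5 promoter region, Hoxc-08, went the other way and was the lowest of its cluster, at 4.27, 6.14 and 6.80 in Ctrl and 3.19, 3.90, 4.62 and 6.05 in WTAkita, a log2 difference of -0.34 ± 0.19 (SE).

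Hoxb-07, the intronic Hoxb3 region at chr11:96340513-96341417, also had an unadjusted limma p under 0.05 and is named here after its values were seen. It measured 12.7, 15.04 and 13.2 in Ctrl and 13.5, 13.02, 16.7 and 19.8 in WTAkita, a log2 difference of 0.26 ± 0.10 (SE). Only WTAkita replicate 3 and WTAkita replicate 4 exceeded all 3 Ctrl libraries.

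In Hoxa the regions farthest from 0 were Hoxa-05, the Hoxa2 promoter, and Hoxa-04, an intronic site of the noncoding RNA Hotairm1. Hoxa-05 measured 4.14, 3.17 and 5.07 in Ctrl and 4.03, 5.64, 4.86 and 6.61 in WTAkita (log2 difference 0.39 ± 0.20, SE). Hoxa-04 measured 3.96, 4.51 and 3.82 in Ctrl and 2.48, 3.56, 2.96 and 3.74 in WTAkita (log2 difference -0.35 ± 0.16, SE). At Hoxa-04 all Ctrl values as deposited were above the WTAkita values, but after normalization the groups met at 1.902 on the log2 scale. Hoxa2 patterns the second pharyngeal arch, and Hotairm1 is a myeloid-expressed antisense RNA of the cluster.

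In Hoxb the farthest were Hoxb-42, the promoter of the prostate gene Hoxb13, and Hoxb-15, a coding-exon site of Hoxb5. Hoxb-42 measured 5.67, 4.28 and 4.33 in Ctrl and 5.61, 6.16, 5.07 and 6.77 in WTAkita (log2 difference 0.36 ± 0.19, SE). Hoxb-15 measured 3.09, 2.49 and 2.36 in Ctrl and 2.46, 1.86, 2.22 and 2.70 in WTAkita (log2 difference -0.19 ± 0.17, SE). Both overlapped between groups. In Hoxd they were Hoxd-19, an intronic site of the noncoding gene Gm28309 near Hoxd10, and Hoxd-02, in an exon of the noncoding RNAs Haglr and Gm14424. Hoxd-19 measured 4.39, 6.55 and 2.45 in Ctrl and 4.23, 4.32, 5.78 and 6.23 in WTAkita (log2 difference 0.32 ± 0.24, SE), and without Ctrl replicate 3 the difference was -0.05. Hoxd-02 measured 5.28, 6.85 and 6.08 in Ctrl and 5.57, 4.27, 4.21 and 6.15 in WTAkita (log2 difference -0.21 ± 0.19, SE).

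Among the promoters, 33 of 39 could be tested, 19 were above 0 and 14 below, with a median of 0.07 against 0.03 over all protein-coding promoters tested, of which 10190 were above 0 and 5106 below. None passed the adjusted limma test, and 1 of the 33 had an unadjusted limma p under 0.05. Over all regions, 1.77% passed that limit with a higher value in WTAkita and 2.1% with a lower value. For the genes known in blood the log2 differences were 0.12 at Hoxa7 (95% interval -0.19 to 0.42), 0.12 at Hoxa9 (-0.19 to 0.43), -0.04 at Hoxa10 (-0.21 to 0.13), 0.11 at Hoxb4 (-0.12 to 0.35), -0.02 at Hoxb5 (-0.28 to 0.24) and -0.11 at Hoxb8 (-0.42 to 0.21). These intervals all contained 0 and do not show that the groups were alike. The leading promoters of each cluster had log2 differences of 0.13 at Hoxa4 (-0.03 to 0.29), 0.15 at Hoxb1 (-0.07 to 0.37), -0.05 at Hoxc4 (-0.33 to 0.23) and -0.01 at Hoxd1 (-0.29 to 0.26).

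Regions missing from some libraries were weak and differed in where they were missed. Of the 25 Hox regions not called in all 7 libraries, with mean fold enrichments of 1.98 to 3.89, 14 were called in all Ctrl but not all WTAkita libraries, 8 in all WTAkita but not all Ctrl libraries and 3 in part of each group. No Hox region was called in all Ctrl and no WTAkita libraries (0.165% of all regions) or in all WTAkita and no Ctrl libraries (0.13% of all regions). The 14 regions are 56% and the 8 regions 32% of the Hox regions missed somewhere. Over the 23825 such regions genome-wide the same classes hold 43.3% and 21.1%. The clusters differed in direction. Regions called in all Ctrl libraries numbered 7 of 8 in Hoxd, 4 of 8 in Hoxb, 3 of 7 in Hoxc and 0 of 2 in Hoxa, and those called in all WTAkita libraries 1, 1, 4 and 2. Because a consensus region needed a peak in 3 of 3 Ctrl or 3 of 4 WTAkita libraries, the groups entered this count unequally.

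The promoters of 3 genes were among them. The Hoxb7 promoter (Hoxb-23) was called at 2.21, 2.78 and 2.03 in Ctrl and only at 2.68 in WTAkita replicate 3. The Hoxd10 promoter (Hoxd-18) was called at 3.10, 3.51 and 3.35 in Ctrl and at 2.88 and 3.35 in WTAkita replicates 1 and 2. The Hoxc12 promoter (Hoxc-29) was called at 2.57 in Ctrl replicate 1 and at 2.17, 3.02, 2.18 and 2.50 in WTAkita. The means of the 3 regions, 2.43, 3.24 and 2.49, lay below the median of all Hox regions, and a missing call is not a measured absence.

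The number of peaks per window was compared over libraries. In Hoxd the counts were 38, 37 and 38 in Ctrl and 34, 33, 35 and 36 in WTAkita, so that the groups did not overlap, and the means were 37.7 ± 0.58 (SD, n = 3) and 34.5 ± 1.29 (SD, n = 4). The difference of -3.17 peaks had p = 0.0571 by the exact two-sided permutation test, the smallest the 35 splits allow, and an adjusted p of 0.229 over the 4 clusters. When every summit was counted instead, since a peak can hold several, the Hoxd numbers were 50, 49 and 52 in Ctrl and 48, 51, 52 and 47 in WTAkita, and the groups overlapped (exact permutation p = 0.743). With the 3 libraries of lowest enrichment left out the peak difference was -2.

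The other clusters overlapped between groups. Hoxa held 41, 42 and 38 peaks in Ctrl and 44, 40, 41 and 37 in WTAkita (exact permutation p = 1.00). Hoxb held 50, 54 and 44 in Ctrl and 46, 47, 45 and 45 in WTAkita (exact permutation p = 0.286). Hoxc held 40, 44 and 40 in Ctrl and 41, 45, 42 and 40 in WTAkita (exact permutation p = 0.743). No adjusted p was under 0.05, which this design cannot reach.

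**Figure D5:**
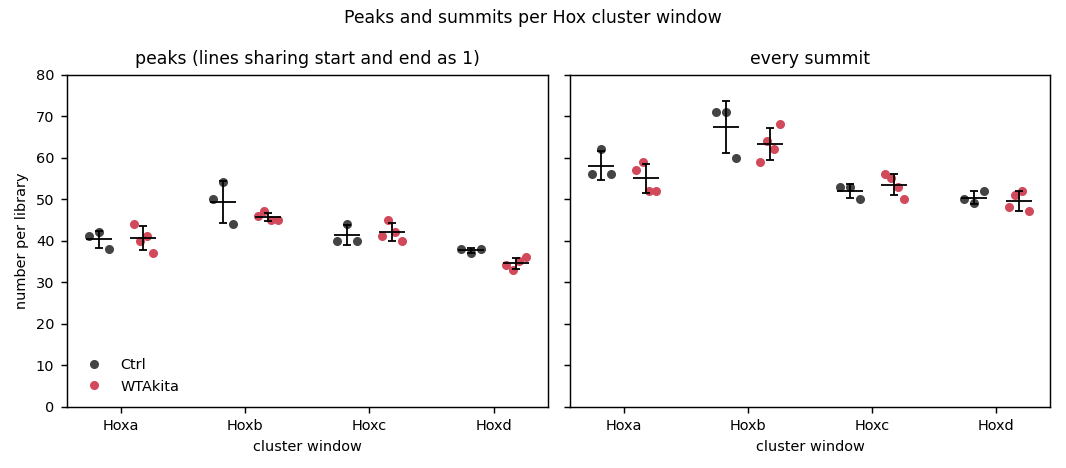
Number per library (vertical axis) of peaks (left) and of summits (right) in each Hox cluster window (horizontal axis), with Ctrl in grey, WTAkita in red, and bars for the mean and SD of each group. The Hoxd peak counts of Ctrl (37 to 38) lie above those of WTAkita (33 to 36), and the Hoxd summit counts (49 to 52 and 47 to 52) overlap.

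The 6 microRNA genes of the miR-10, miR-196 and miR-615 families lie in the windows, and their mature sequences are shown because they fall into families that are repeated across clusters, printed 5′ to 3′ from RefSeq GRCm38.p6 with the seed, bases 2 to 8, in capitals.
miR-10a-5p (Hoxb): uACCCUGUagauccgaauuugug
miR-10b-5p (Hoxd): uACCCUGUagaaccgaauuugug
miR-196a-5p (Hoxb and Hoxc): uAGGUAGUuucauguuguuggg
miR-196b-5p (Hoxa): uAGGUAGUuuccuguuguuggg
miR-615-3p (Hoxc): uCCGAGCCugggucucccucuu
The miR-10 pair shares the seed ACCCUGU and the miR-196 group the seed AGGUAGU, and miR-196 is known to target Hox transcripts. None of the 6 genes was covered closely by a strong region. Mir196b lay 431 bp from Hoxa-22 (mean fold enrichment 2.70), Mir615 705 bp from Hoxc-07 (4.34), Mir10b 1303 bp from the Hoxd4 promoter region Hoxd-09 (5.84) and Mir10a 1367 bp from the Hoxb4 promoter region Hoxb-09 (13.2). Mir196a-1 and Mir196a-2 lay 3516 and 2506 bp from the nearest summits.

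The noncoding RNAs of the clusters differed in how near they started to an accessible region. The start of Haglr lay 2 bp from the summit of Hoxd-01, the region shared with the Hoxd1 promoter (10.6). The start of Hoxd3os1 lay 221 bp from Hoxd-12 (19.04). Hoxa11os started 2198 bp from the Hoxa11 promoter region (11.6), Hottip 1865 bp from Hoxa-32 (5.81) and Hotair 2027 bp from Hoxc-25 (4.72). A region between divergent or overlapping genes cannot be assigned to one of them.

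The genes that work with Hox proteins were accessible in both groups. Of the 9 TALE homeodomain cofactors, which bind DNA together with Hox proteins, all had a promoter region in all 7 libraries, 5 log2 differences were above 0 and 4 below, and none passed the adjusted limma test. Among those above 0 was Pbx2 (0.06 ± 0.15, SE), and the farthest below were Meis3 (-0.08 ± 0.12) and Meis2 (-0.06 ± 0.16). Meis1, the partner of Hoxa9 in stem cells and leukemia, measured 10.9, 10.9 and 11.5 in Ctrl and 9.68, 9.53, 11.9 and 11.7 in WTAkita, with the 2 lowest values in WTAkita replicates 1 and 2.

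Of 16 genes that act upstream of the clusters, the Mll methyltransferase Kmt2a with its partners and the Cdx factors, 15 had a promoter region and 14 were tested. Of these 13 were above 0 and 1 below, with none past the adjusted limma test. The farthest above were Kmt2a (0.12 ± 0.13, SE) and Aff4 (0.11 ± 0.14), Ash2l was the only one below (-0.02 ± 0.07), and Mllt3 was the lowest of the others (0.00 ± 0.10). The median of the 14 was 0.06, against 0.03 over all protein-coding promoters tested, of which 10190 were above 0 and 5106 below. Evx1 and Evx2, homeobox genes that flank the Hoxa and Hoxd clusters, differed in that Evx1 had a weak region (mean 2.98) and Evx2 none within 1000 bp of its start site.

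Promoter regions of genes that mark other cells were also present. Regions were found for 3 of 4 B cell markers, 3 of 5 T and NK cell markers, 3 of 5 granulocyte and macrophage markers, 3 of 4 erythroid markers and 4 of 6 non-blood markers. The summed fold enrichment of the B cell list ran from 25.9 to 29.4 in Ctrl and from 24.3 to 28.9 in WTAkita, that of the T and NK cell list from 17.7 to 25.4 and from 22.3 to 29.01, and that of the granulocyte and macrophage list from 24.8 to 26.4 and from 24.3 to 28.9. The erythroid sums ran from 43.6 to 46.5 in Ctrl and from 36.3 to 46.7 in WTAkita, and the non-blood sums from 59.3 to 62.1 and from 52.0 to 65.3. A region that a library did not call added nothing to its sum. This held for Cd3g in Ctrl replicates 1 and 3 and for Cd79a in WTAkita replicates 3 and 4, so those sums also reflect missing calls. The ranges of the groups overlapped for every list, and the 2 lowest erythroid sums, 36.3 and 37.9, belonged to WTAkita replicates 1 and 2, which had the lowest median fold enrichments. No region was found for Ms4a1, Cd3e, Cd8a, Ly6g, S100a8, Klf1, Alb or Ins2. An open promoter does not tell whether a gene is expressed, and the part of other cells in the Hox values was not tested.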

How the data were processed

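ATAC-Seq peaks of 7 LSK libraries, 3 Ctrl and 4 WTAkita, were used, grouped by their labels. Per the submitters' processing notes and the study's methods, the authors trimmed reads (Trim Galore 0.4.2, cutadapt 1.9.1), aligned them to mm10 (Bowtie2 2.3.4.1) and, after duplicate removal, called peaks library by library with MACS2 (2.1.4 in the notes), extending tags to 150 bp around the cut site. No control library is named. The deposited fold enrichment is the ratio of summit pileup to local tag density within 1 library and carries no scaling across libraries. Likewise, the deposited −log10 p-values compare the same 2 quantities and rise with depth. Scores and q-values were not used.

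Both quantities were solved from these values, and the pileup came out whole within 0.02 for at least 99.996% of peaks. Tag totals were estimated with an effective genome of 1870000000 bp. Consensus regions followed the study's rule, with peaks present in at least 75% of a group's libraries joined at 50% overlap. A library's value was its highest summit in a region. Regions called in all 7 libraries were quantile-normalized on a log2 scale and tested, two-sided, in R 4.3.3 with limma 3.58.1 (intensity trend), and p was adjusted by Benjamini-Hochberg over 109711 regions. Every pair of libraries differed by at least sampling noise (mean chi-square 1.08 to 1.81), and each was counted as 1 sample. Genes came from GENCODE vM21, sequence from GRCm38.p6, the same build. Python 3.11.15, pandas 2.3.3, scipy 1.17.1 and pysam 0.24.0 were used, and the limma step was tested on simulated data.

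The members and gene lists were chosen with earlier results of these data known. Values per library are given for the leading promoter and strongest region of each cluster, the region farthest from 0 in each direction, and Hoxa7, Hoxa9, Hoxa10, Hoxb3, Hoxb4, Hoxb5 and Hoxb8. The values of some members are not reported here. Other regions with values were chosen after their values were seen. Alternatives covered normalization, the peak threshold, overlap, trend, the number of libraries called, a replicate block and each library left out. Leaving out the 3 libraries of lowest fold enrichment, or using that value as a covariate, was chosen after seeing the data.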

Additional observations from a re-analysis of the deposited data

Results flagged for a closer look

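In 1 group of 4 WTAkita libraries a value stood far from the other 3. At Hoxc-13, the strongest Hoxc region, WTAkita replicate 4 had a fold enrichment of 15.8, while the other WTAkita libraries lay between 10.4 and 10.8, and Ctrl replicate 2 reached 14.4. Chance gives such a gap in about 1 in 20 groups, and 25 groups of values were examined.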

How the results depend on the processing

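No Hox region passed the adjusted limma test under any alternative run. Over all regions the count was 0 to 7 with 1 library left out, 7 without WTAkita replicate 4, and 6 with a replicate block, none of them Hox. Deviations of same-numbered libraries correlated at 0.21, 0.03 and 0.06, the first being the highest of any Ctrl and WTAkita pair. Not every library correlated best with its own number, and whether the replicate numbers pair the libraries was not settled. The count of Hox regions at an unadjusted p under 0.05, 4 as reported, was 0 with summit pileups, and 7 each with the replicate block, without the trend and with regions called in at least 5 libraries. It was 4 to 6 with 1 library left out. The share of all regions at that limit under each setting is not given here. A change in the Hox count can therefore not be told apart from a change over all regions. The median Hox difference was -0.0816 with pileups and 0.00865 to 0.0571 with 1 library left out. With pileups the log2 difference changed sign at Hoxa4 (-0.00636), Hoxa7 (-0.0713), Hoxa9 (-0.101), Hoxb1 (-0.0207), Hoxb4 (-0.0288), Hoxb-37 (-0.0573) and Hoxc-13 (-0.156). Hoxc-13 also did so with the replicate block (-0.0321) and, like Hoxd1 (0.0955), without the 3 libraries of lowest fold enrichment (-0.0638). With 1 library left out the difference crossed 0 at Hoxa10 (-0.0785 to 0.0183), Hoxb5 (-0.0765 to 0.0127), Hoxc4 (-0.0966 to 0.0325), Hoxd1 (-0.106 to 0.129), Hoxb-37 (-0.0500 to 0.0957), Hoxc-13 (-0.0466 to 0.143) and Hoxd-19 (-0.0488 to 0.579). The Hoxa peak difference was -3 over every summit, -1 without the 3 libraries and -1 to 1.33 with 1 left out. For Hoxc it was -1 without the 3 libraries and -0.333 to 2 with 1 left out, for Hoxb -6.25 to -1.25, and for Hoxd -3.67 to -2.67. The cause of these changes was not tested.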
